A study of Mus musculus with 36 samples.

Results

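The members examined here are 10 genes of fatty acid uptake and mitochondrial fatty acid oxidation, chosen by name: Cd36, Fabp3, Lpl, Cpt1b, Cpt2, Acadm, Acadl, Acadvl, Hadha and Hadhb. A gene was measured where at least 1 probe set of the array was annotated to its symbol alone. This held for 9 of the 10 members, through 15 probe sets, among 12393 genes measured in all. The remaining member, Cpt1b, is covered by a probe set that is also annotated to Chkb and Gm44502, and no value is given for it. The series consists of 36 single-colour Affymetrix arrays of mouse left ventricle, 1 per mouse. Of these, 18 came from mice with transverse aortic constriction (TAC), a surgical narrowing of the aorta that loads the left ventricle with pressure, and 18 from mice with a sham operation (SHAM). All hearts were taken 8 weeks after surgery at ZT03, ZT07, ZT11, ZT15, ZT19 or ZT23 (Zeitgeber time, in hours), with 3 mice at each time in each surgery, labelled as biological replicates. Genotype, strain, sex, age and light schedule are not given in the labels used here.

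The deposited values are on a log scale, read here as log2, and each probe set had been set to a median of 0 within the 18 TAC arrays and, separately, within the 18 SHAM arrays. A value is therefore a log2 difference from the median of that surgery. Whether a member is higher or lower in TAC than in SHAM hearts cannot be read from these values, and the level of one gene cannot be set against that of another. For the same reason, the labelled tissue could not be checked by the presence or absence of its markers. The medians of the single arrays lay between -0.04 and 0.03. Arrays were screened for a mean above 1 of the airway epithelial or thymocyte genes, which 3 arrays had. The mean of 8 airway epithelial genes was 1.28 in TAC ZT23 replicate 1 and 1.03 in TAC ZT03 replicate 3, and the mean of 9 thymocyte genes was 2.22 in SHAM ZT11 replicate 3. The mean of 8 white adipocyte genes was also above 1 in TAC ZT11 replicate 3 (1.25) and in SHAM ZT11 replicate 3 (1.22).

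The heart draws much of its energy from long-chain fatty acids. Lpl, lipoprotein lipase, releases them from circulating triglycerides at the capillary wall, Cd36 takes them across the plasma membrane and Fabp3, the heart fatty acid binding protein, carries them in the cytosol. Entry into mitochondria runs through the carnitine shuttle, in which Cpt1b on the outer membrane makes acylcarnitine and Cpt2 on the inner membrane turns it back into acyl-CoA. The acyl-CoA dehydrogenases Acadvl, Acadl and Acadm, for very-long-, long- and medium-chain substrates, take the first step of each round of beta-oxidation. Hadha and Hadhb encode the alpha and beta subunits of the mitochondrial trifunctional protein, which carries out the later steps on long chains. Myh7, the beta myosin heavy chain, is a gene of the fetal programme that pressure load raises in the mouse ventricle, and served here as the gene the members were set against.

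Promoter windows of 300 bases, from 250 bases before the annotated start to 50 after it, were available from RefSeq (GRCm38.p6) for 8 members, on both strands of which 6 short motifs were searched. The windows below are shown because Cd36 and Acadm were the members whose slope on Myh7 passed the test described further on, and because Hadha and Hadhb start head to head. Capitals mark matches to AGGTCA, the half-site of many nuclear receptors (TGACCT on the other strand), to CCAAT and to GGGCGG, the GC box (CCGCCC on the other strand). The Cd36 window lies at chr5:17835847-17836146 on the minus strand, within the span annotated to the gene, chr5:17781690-17888959. The Acadm window lies at chr3:153944594-153944893 on the minus strand, and the Hadhb window at chr5:30155003-30155302 on the plus strand.
Cd36: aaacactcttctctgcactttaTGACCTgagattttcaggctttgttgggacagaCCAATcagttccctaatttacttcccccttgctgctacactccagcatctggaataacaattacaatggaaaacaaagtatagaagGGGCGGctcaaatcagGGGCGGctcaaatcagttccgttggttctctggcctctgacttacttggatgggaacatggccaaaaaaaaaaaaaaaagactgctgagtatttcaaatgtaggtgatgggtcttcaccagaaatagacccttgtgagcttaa
Acadm: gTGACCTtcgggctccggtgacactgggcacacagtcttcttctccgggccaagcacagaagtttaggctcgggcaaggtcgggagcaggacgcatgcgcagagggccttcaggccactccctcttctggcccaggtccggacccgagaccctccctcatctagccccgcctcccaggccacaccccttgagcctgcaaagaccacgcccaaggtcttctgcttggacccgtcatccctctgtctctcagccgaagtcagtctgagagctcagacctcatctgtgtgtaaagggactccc
Hadhb: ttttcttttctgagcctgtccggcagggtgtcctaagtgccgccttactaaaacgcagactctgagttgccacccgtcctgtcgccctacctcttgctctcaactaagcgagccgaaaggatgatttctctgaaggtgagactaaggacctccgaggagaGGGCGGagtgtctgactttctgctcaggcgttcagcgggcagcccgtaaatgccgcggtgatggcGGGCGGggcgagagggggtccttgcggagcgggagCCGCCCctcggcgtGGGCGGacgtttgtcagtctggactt
AGGTCA occurred in 3 of the 8 windows, 228 bases before the start of Cd36, 249 before that of Acadm and 87 before that of Acadvl. It occurs in 16.3% of 32817 promoter windows of the same length. The GC box GGGCGG was found in the windows of Cd36, Cpt2, Acadl, Hadha and Hadhb and occurs in 35.6% of all windows, and CCAAT was found in that of Cd36 and occurs in 37.4%. The strings TCAAGGTCA (a site of the estrogen-related receptors, 0.424% of all windows), AGGTCANAGGTCA (a direct repeat bound by PPAR with RXR, 0.0396%) and CACGTG (the E-box of the clock factors, 7.15%) were in none of the 8 windows; both of the longer strings hold AGGTCA. Hadha starts at 30154980 on the minus strand and Hadhb at 30155253 on the plus strand of chromosome 5, with 272 bases between the starts, so that 228 bases of their windows are the same sequence. The GC box of the Hadha window lies in this shared sequence and is the same site as a GC box of the Hadhb window.

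No member had a 24-h rhythm that passed the test in either surgery. In TAC hearts Cpt2 alone passed a test of change over the 6 times, 1 of 9 members where 5.26% of all genes passed. Rhythm was tested by fitting a cosine of 24 h to each gene in each surgery (limma moderated F-test, Benjamini-Hochberg adjusted over all 12393 genes, threshold 0.05). In TAC, 0 of 9 members passed, where 4.35% of all genes did, and 3 members (Cd36, Fabp3 and Cpt2) had an unadjusted p under 0.05, where 19.8% of all genes did. In SHAM, 0 of 9 passed against 5.58% of all genes, and 0 had an unadjusted p under 0.05 against 18.8%. The largest fitted amplitude among the members, the height of the curve above its mean, was that of Cd36 in TAC hearts, 0.16 ± 0.05 (SE) on the log2 scale with a peak at ZT 19.6 (adjusted p = 0.143 in limma), against 0.07 ± 0.05 in SHAM hearts (adjusted p = 0.688). Over the 9 members the TAC amplitudes ran from 0.02 (Acadl) to 0.16 and the SHAM amplitudes from 0.02 (Acadl) to 0.07 (Lpl). In bulk tissue, here and below, fewer cells of a type and less RNA per cell cannot be told apart.

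Cpt2 was 0.06, -0.11 and -0.14 in the 3 TAC hearts at ZT03, -0.01, -0.08 and 0.08 at ZT07, 0.09, -0.32 and -0.03 at ZT11, 0.00, 0.11 and 0.25 at ZT15, 0.05, 0.06 and 0.20 at ZT19, and -0.45, -0.22 and -0.13 at ZT23. All 3 hearts at ZT23 were below all 3 at ZT15 and at ZT19, and the 3 at ZT11 spanned most of the range. Myh7 was high in the same 3 hearts at ZT23 (1.54, 1.62 and 0.96). The part of Myh7 in the change of Cpt2 over the times was not tested. In the 18 SHAM hearts Cpt2 stayed between -0.12 and 0.12, with a median of -0.02. With the 6 time means in place of a cosine, Cpt2 changed over the times in TAC (adjusted p = 0.0356 in limma) and had an adjusted p of 0.97 in SHAM. It was 1 of 9 members to pass in TAC, where 5.26% of all genes passed, and 0 of 9 passed in SHAM, where 3.37% did. With an unadjusted p under 0.05 there were 3 members in TAC (Cd36, Cpt2 and Acadvl), where 20.3% of all genes had one, and 0 in SHAM, where 13.2% did. The time course of Cpt2 had an unadjusted p of 0.0181 and an adjusted p of 0.679 for the difference between TAC and SHAM. Its call in TAC rests on a spread estimated from both surgeries: with the TAC arrays alone the adjusted p was 0.277, and leaving out 1 array ended the call for 6 of 36 arrays (TAC ZT23 replicates 1 and 2, ZT03 replicate 2, ZT15 replicates 2 and 3 and ZT19 replicate 3), with adjusted p between 0.0114 and 0.16 over all 36. Its 2 probe sets each missed the threshold when tested by themselves (adjusted p = 0.0623 and 0.111).

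Cd36 in TAC hearts was 0.06, -0.08 and -0.18 at ZT03, 0.02, -0.22 and 0.03 at ZT07, 0.01, -0.51 and -0.22 at ZT11, -0.04, 0.06 and 0.31 at ZT15, 0.01, 0.22 and 0.36 at ZT19, and 0.03, 0.09 and -0.04 at ZT23. In SHAM hearts it was 0.15, -0.05 and -0.28 at ZT03, 0.21, 0.24 and 0.23 at ZT07, -0.05, 0.01 and -0.19 at ZT11, 0.06, -0.07 and -0.18 at ZT15, -0.01, -0.04 and 0.06 at ZT19, and 0.18, 0.03 and -0.04 at ZT23. The SHAM hearts at ZT07 were the 3 highest of that surgery, while the TAC hearts were highest at ZT19 on average and overlapped between every pair of neighbouring times. Its change over the times had an adjusted p of 0.115 in TAC and 0.498 in SHAM (limma).

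**Figure D1:**
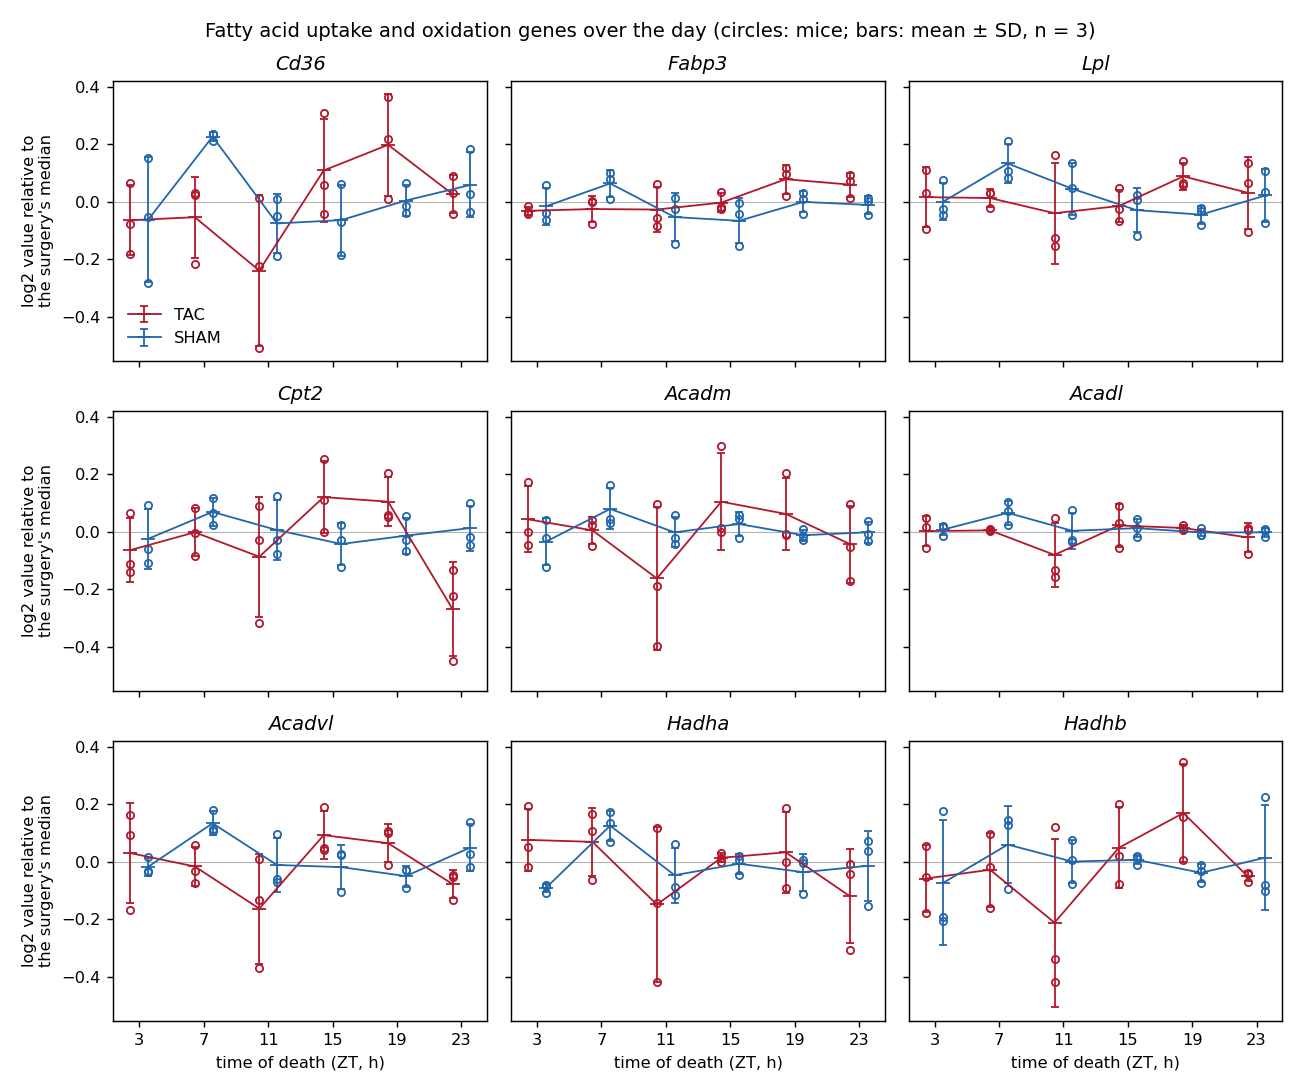
Log2 values of the 9 measured members by Zeitgeber time (hours) in TAC and SHAM hearts, each relative to the median of its own surgery. Circles are single mice (n = 3 per time and surgery), and joined marks with bars are the time means ± SD; the SHAM means are highest at ZT07 for all 9 members, and the TAC means are lowest at ZT11 for 7 of 9.

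The highest and lowest time means fell at the same times for many of the members. In TAC hearts the lowest of the 6 time means was at ZT11 for 7 of 9 members, as it was for 16.5% of all genes, and the highest was at ZT15 for 4 (19.5% of all genes), at ZT19 for 4 (14.5%) and at ZT03 for 1, Hadha (26%). In SHAM hearts the highest time mean was at ZT07 for 9 of 9 members, as it was for 18.8% of all genes. The mean of the 9 members averaged -0.13 ± 0.19 at ZT11 and 0.09 ± 0.06 at ZT19 in TAC hearts, and 0.11 ± 0.00 at ZT07 and -0.03 ± 0.07 at ZT03 in SHAM hearts (SD, n = 3 each). The members are measured in the same hearts and are correlated, so their shared extremes are not 9 separate observations. At TAC ZT11 the 3 hearts did not move together: the mean of the members was 0.08 in replicate 1, -0.30 in replicate 2 and -0.16 in replicate 3. Replicate 2 held the lowest TAC value of 6 of the 9 members, and 9 of 9 were below 0 in it and in replicate 3.

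The rhythm differed between TAC and SHAM for 0 of 9 members, against 0.0484% of all genes, and the time course for 0 of 9, against 0.0161% of all genes (limma, adjusted over all genes). With an unadjusted p under 0.05, the rhythm differed for Cd36, Fabp3 and Lpl, where 6.27% of all genes did, and the time course for Cd36, Cpt2 and Acadvl, where 5.57% did. The peak times fitted in TAC lay between ZT 19.5 and ZT 21.9 for 7 of the 9 members, those of Cpt2 and Hadha being ZT 14.3 and ZT 3.28, and the SHAM peaks of the 9 lay between ZT 3.69 and ZT 10.2. As none of these rhythms passed the test, the peak times describe the fitted curves only.

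Within a surgery the values of the members were mostly positively correlated from heart to heart. Of the 36 pairs among the 9 genes, 36 had a positive Pearson correlation over the 18 TAC hearts, with a median r of 0.60 and a range of 0.00 to 0.87, and 34 had one over the 18 SHAM hearts, with a median of 0.50 and a range of -0.08 to 0.78. With the time means removed, 36 pairs were positive in TAC (median 0.60) and 28 in SHAM (median 0.23). All pairs share the same hearts and arrays, and the difference between the surgeries was not tested. The highest pair in TAC was Acadm with Acadvl, and the lowest was Fabp3 with Cpt2. Hadha and Hadhb, whose starts face each other, had r = 0.44 over the TAC hearts and 0.05 over the SHAM hearts.

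Hearts at the same time of day differed more from each other in TAC than in SHAM for 8 of the 9 members. No member passed the test, and most of all genes leaned the same way in the measure tested. The pooled SD of the 3 hearts at a time was 0.15 in TAC and 0.05 in SHAM for Acadm, a ratio of 2.78, and 0.16 in TAC and 0.07 in SHAM for Hadha, a ratio of 2.12. The ratios of Acadvl, Acadl and Cpt2 were 1.86, 1.78 and 1.69, those of Lpl, Cd36 and Hadhb were 1.4, 1.39 and 1.25, and Fabp3, at 0.786, was the member with the smaller spread in TAC. These ratios are of pooled SDs, for which the share of all genes was not counted. The test below used the mean log2 SD over the 6 groups of a surgery. In that measure TAC minus SHAM was 1.46 for Acadm, 0.20 for Acadl and 0.17 for Lpl. It was above 0 for 8 of 9 members, as it was for 71.3% of all genes. Myh7 had a pooled SD of 0.77 in TAC against 0.12 in SHAM, a ratio of 6.18. In a limma test of the log2 SDs of the 6 TAC against the 6 SHAM groups, 0 of 9 members passed, against 0.0161% of all genes, and Acadm was the 1 member with an unadjusted p under 0.05 (0.00858, adjusted p = 0.434), where 8.31% of all genes had one. Tested on absolute deviations from the group means instead, Acadm passed with an adjusted p of 0.0482 (limma). It was 1 of 199 genes that passed there, where 2 genes passed the test of the log2 SDs. The 3 deviations of a group share its mean and are not independent, but that test takes them as separate values.

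**Figure D2:**
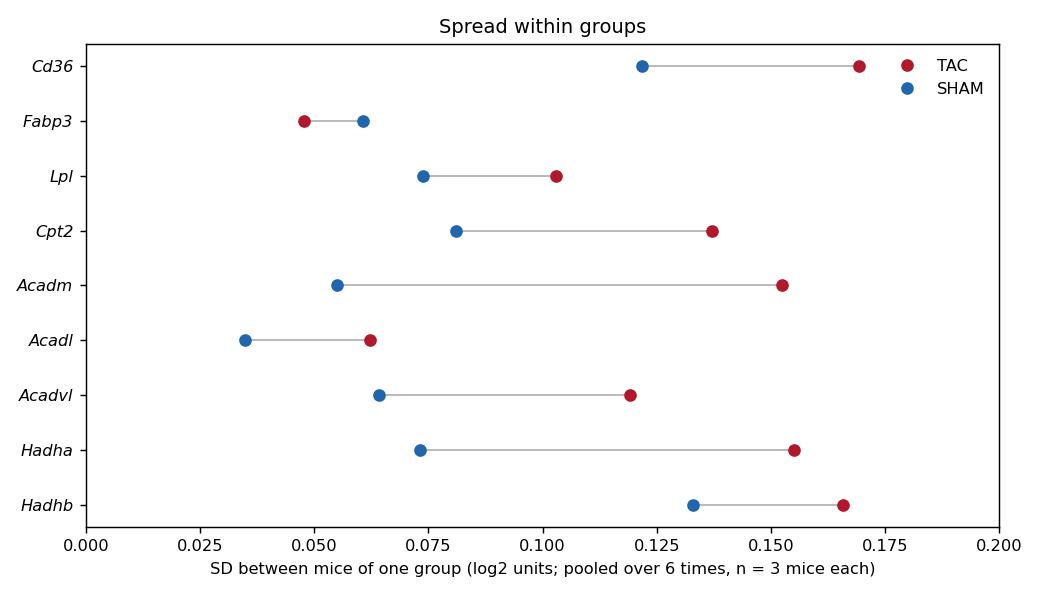
SD of the 3 hearts at the same time (log2 units) for each of the 9 members in TAC and SHAM hearts. Each point is the SD pooled over the 6 times of a surgery, and a line joins both points of a gene; the TAC point is the larger one for 8 of 9 members, and Fabp3 is the exception.

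The hearts of TAC mice taken at the same time differed widely in Myh7, and the slope on Myh7 was negative for every measured member, with Cd36 and Acadm passing the test. Myh7 was -1.70, -0.54 and 0.32 in the TAC hearts at ZT03, 0.41, 0.28 and -0.17 at ZT07, -0.32, 1.17 and 0.75 at ZT11, -0.30, -0.28 and -1.95 at ZT15, 0.17, -1.44 and -1.31 at ZT19, and 1.54, 1.62 and 0.96 at ZT23. It thus spanned -1.95 to 1.62 in TAC, against -0.37 to 0.32 in SHAM, and it also changed over the times in TAC (adjusted p = 0.00261 in limma). The slope of each gene on Myh7 was therefore fitted within times, over the 18 TAC arrays with the 6 time means in the model, and adjusted over 12392 genes. The slopes of 9 of 9 members were negative, as were those of 56.5% of all genes, with a median of -0.12 against -0.01 over all genes. Cd36 and Acadm passed, 2 of 9 members against 0.549% of all genes that passed with a negative slope (1.42% in either direction). With an unadjusted p under 0.05 there were 7 members, against 6.96% of all genes with a negative slope (12.3% in either direction). As the members are correlated from heart to heart, their slopes are not 9 separate observations.

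Acadm, the medium-chain acyl-CoA dehydrogenase, fell by 0.16 ± 0.03 (SE) log2 units per log2 unit of Myh7 (adjusted p = 0.0313 in limma), a change of -10.4% for each doubling of Myh7. Its values in TAC hearts were 0.17, 0.00 and -0.04 at ZT03, 0.04, -0.05 and 0.02 at ZT07, 0.10, -0.40 and -0.19 at ZT11, 0.00, 0.01 and 0.30 at ZT15, -0.01, 0.21 and -0.01 at ZT19, and -0.17, -0.05 and 0.10 at ZT23. Its highest value fell in the heart with the lowest Myh7 (ZT15 replicate 3) and its lowest in ZT11 replicate 2, whose Myh7 was 1.17. In SHAM hearts Acadm kept between -0.12 and 0.16, with a median of 0.00.

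Cd36, the fatty acid translocase, fell by 0.17 ± 0.04 (SE) per log2 unit of Myh7 (adjusted p = 0.0373 in limma), or -11.2% for each doubling. Its 3 probe sets differed: tested among all probe sets, 1450884_at had a slope of -0.24 (adjusted p = 0.0229), 1423166_at of -0.17 (adjusted p = 0.0639) and 1450883_a_at of -0.11 (adjusted p = 0.321). The 3 share the negative sign, and the first is the one of the 3 that passed. Both calls depend on single hearts: leaving out 1 TAC array at a time kept the slope of Cd36 between -0.19 and -0.15 and that of Acadm between -0.19 and -0.13, but ended the call of Cd36 for 11 of 18 arrays (ZT03 replicates 1, 2 and 3, ZT07 replicate 3, ZT11 replicates 1 and 2, ZT15 replicates 1, 2 and 3, and ZT19 replicates 1 and 3), with adjusted p up to 0.127. It ended that of Acadm for 7 of 18 (ZT03 replicates 1 and 3, ZT11 replicate 1, ZT15 replicates 1, 2 and 3, and ZT19 replicate 2), with adjusted p up to 0.118. Without the 2 TAC arrays with airway genes and the SHAM array with thymocyte genes the adjusted p were 0.084 for Cd36 and 0.0524 for Acadm. With quantile normalization between arrays they were 0.408 for Cd36 and 0.299 for Acadm. With the replicate number as a block they were 0.0732 for Cd36 and 0.0629 for Acadm.

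The other dehydrogenases, Cpt2 and the trifunctional protein had slopes of the same sign that missed the threshold. The slope was -0.12 ± 0.03 for Acadvl (SE; adjusted p = 0.0543 in limma), -0.15 ± 0.04 for Hadhb (adjusted p = 0.108), -0.13 ± 0.04 for Cpt2 (adjusted p = 0.11), -0.10 ± 0.05 for Hadha (adjusted p = 0.389) and -0.04 ± 0.02 for Acadl (adjusted p = 0.527). Of the uptake genes, Lpl had a slope of -0.07 ± 0.03 (adjusted p = 0.38) and Fabp3 one of -0.01 ± 0.02 (adjusted p = 0.944), with a 95% interval of -0.06 to 0.04. The probe sets of Cpt2 and of Hadhb also differed in size: 1416772_at of Cpt2 had a slope of -0.22 and 1447820_x_at one of -0.03, and 1437172_x_at of Hadhb one of -0.22 and 1426522_at one of -0.08.

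**Figure D3:**
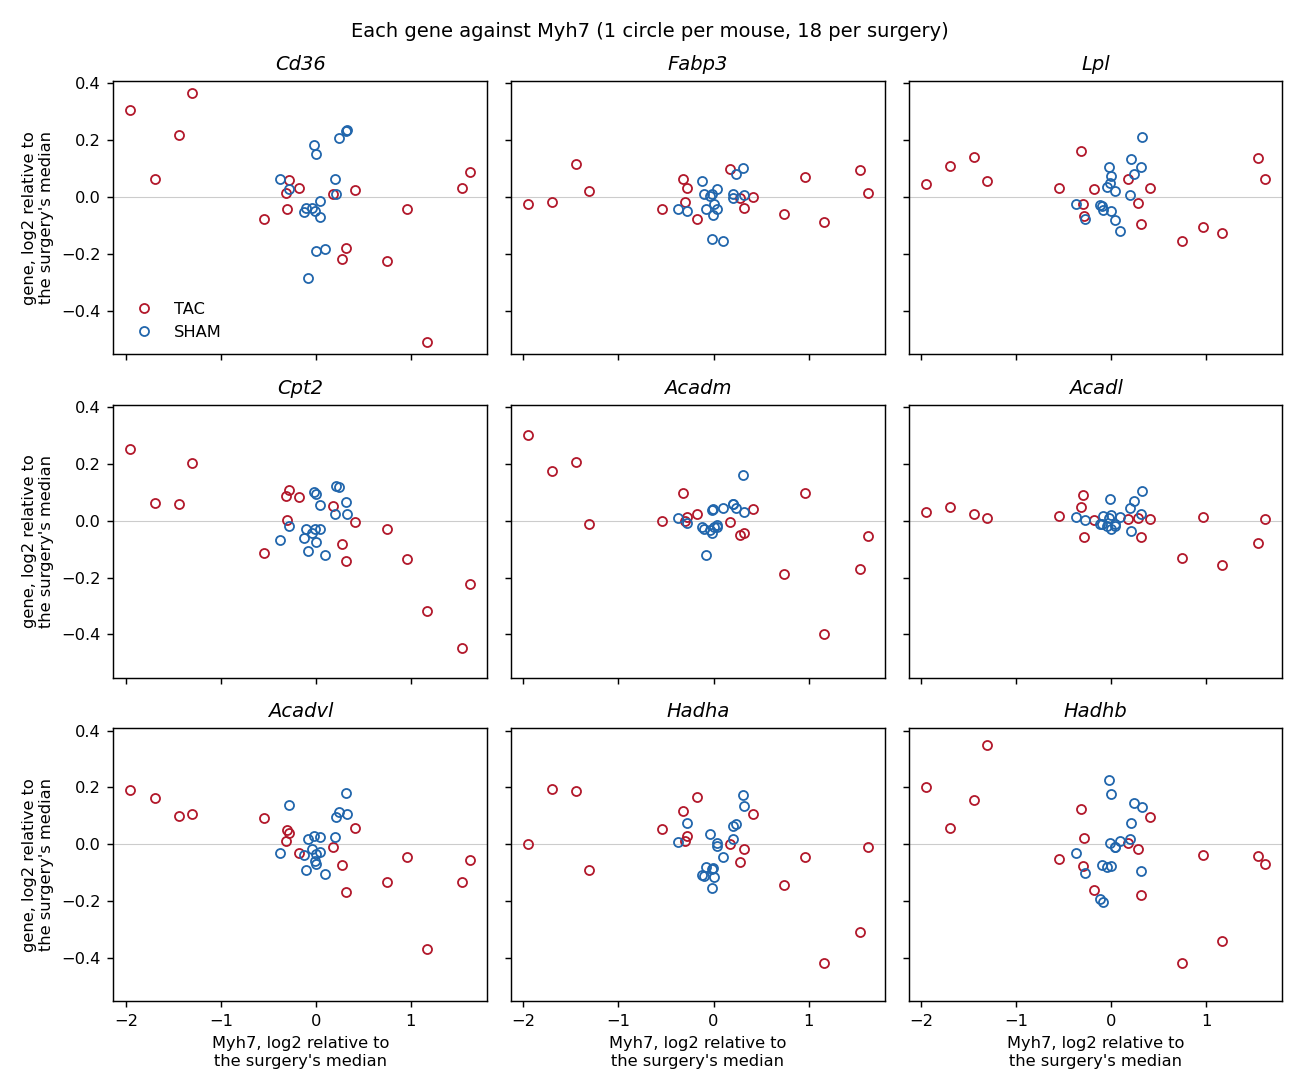
Log2 value of each of the 9 members against that of Myh7 in the same heart, for 18 TAC and 18 SHAM hearts. Each point is a mouse; the TAC hearts spread from -1.95 to 1.62 in Myh7, with r from -0.82 for Cpt2 to 0.00 for Fabp3, while the SHAM hearts lie between -0.37 and 0.32.

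Without the time means, correlations with Myh7 over the 18 TAC hearts were largest for Cpt2 and Acadvl, among 9 relations per surgery whose permutation p are unadjusted (two-sided, 100000 resamples). An unadjusted permutation p under 0.05 was found for 7 of 9 members, where 19.9% of all genes had one. Cpt2 had Pearson r = -0.82 (permutation p = 3e-05) and Spearman rho = -0.81 (permutation p = 9e-05), and r = -0.80 without the 2 hearts farthest from the median of Myh7 (ZT15 replicate 3 and ZT03 replicate 1). Acadvl had r = -0.79 (permutation p = 7e-05) and rho = -0.86 (permutation p = 2e-05), with r = -0.71 without those hearts. Acadm had r = -0.73 (permutation p = 3e-04) and rho = -0.71 (permutation p = 0.0013), with r = -0.60 without them, and Cd36 had r = -0.60 (permutation p = 0.00769) and rho = -0.47 (permutation p = 0.0482), with r = -0.53. Hadhb, Hadha and Acadl had r of -0.63, -0.59 and -0.55, Lpl had -0.38 (permutation p = 0.119) and Fabp3 0.00 (permutation p = 0.994). With the time means removed, the r of Acadm was -0.80 (exact permutation p = 9.43e-04 over 46656 orders within times), that of Acadvl -0.79 (exact permutation p = 0.00161), that of Cd36 -0.78 (exact permutation p = 0.00341) and that of Cpt2 -0.71 (exact permutation p = 0.00416). Hadhb had -0.70 (exact permutation p = 0.0136) and Lpl -0.55 (exact permutation p = 0.0441). Hadha, at -0.51 (exact permutation p = 0.0533), and Acadl, at -0.55 (exact permutation p = 0.0787), no longer had a p under 0.05.

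No member had a slope on Myh7 that passed the test in SHAM hearts. Over the 18 SHAM hearts r was positive for 9 of 9 members, as it was for 48.9% of all genes, from 0.34 (Fabp3) to 0.59 (Lpl), Myh7 being highest at ZT07 as the members were. An unadjusted permutation p under 0.05 was found for 4 of the 9, where 10.2% of all genes had one: Lpl (p = 0.00944), Acadm (r = 0.58, p = 0.0118), Cpt2 (r = 0.50, p = 0.0325) and Hadha (r = 0.48, p = 0.0438). Spearman's rho of these 4 was 0.46 (permutation p = 0.0588), 0.64 (0.0052), 0.50 (0.0349) and 0.47 (0.0488). Their r without the 2 hearts farthest from the median of Myh7 (ZT19 replicate 3 and ZT07 replicate 2) was 0.51, 0.72, 0.49 and 0.52. With the time means removed, Cpt2 was the 1 member with an exact permutation p under 0.05 (r = 0.59, p = 0.0273). Within times the SHAM slope was positive for 7 of 9 members, as it was for 48.3% of all genes, with Cpt2 the highest at 0.38 ± 0.16 (SE; unadjusted p = 0.0326, adjusted p = 0.999 in limma). Of all genes, 0% passed in SHAM, and Cpt2 was the 1 member with an unadjusted p under 0.05, where 3.2% of all genes had one. The slope differed between TAC and SHAM for 0 of 9 members, against 0% of all genes, and 2.03% of all genes had an unadjusted p under 0.05. Cpt2 was the 1 member among these, with a TAC minus SHAM difference of -0.51 ± 0.20 (SE; 95% interval -0.92 to -0.10, unadjusted p = 0.0174, adjusted p = 1 in limma). For Cd36 the difference was -0.38 with a 95% interval of -0.92 to 0.15, and for Acadm -0.28 with an interval of -0.66 to 0.10.

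Most of the other genes of the pathway, listed by function, also had negative slopes on Myh7. Of 90 listed genes, 78 were measured, 68 had a negative slope in TAC, 10 a positive one and 11 passed, all with a negative slope. Of all genes, 56.5% had a negative slope and 0.549% passed with one. The pathway genes were measured in the same hearts and many are correlated, so these counts are not separate observations. Among 15 other genes of mitochondrial beta-oxidation, 15 had negative slopes (median -0.15) and 6 passed: Acaa2, the 3-ketoacyl-CoA thiolase (-0.31, adjusted p = 0.0023 in limma), Etfb and Etfa, the subunits of the electron transfer flavoprotein that takes electrons from the acyl-CoA dehydrogenases (-0.20, adjusted p = 0.00401, and -0.16, adjusted p = 0.00847), Hadh, Eci2 and Decr1. Of the 6 carnitine genes 6 were negative and 0 passed, Slc25a20, the carnitine-acylcarnitine carrier, being nearest (-0.15, adjusted p = 0.0635). Of 9 measured genes of uptake and activation, 7 were negative and 0 passed. Of 17 measured tricarboxylic acid cycle genes, 17 were negative (median -0.10) and 2 passed, Sdha (-0.16, adjusted p = 0.0267) and Idh3a (-0.13, adjusted p = 0.0363). Ppargc1b, a transcriptional coactivator of mitochondrial genes, was the 1 of 12 measured regulators that passed (-0.16, adjusted p = 0.0197), while Ppara had a slope of 0.07 (adjusted p = 0.931), Ppargc1a of -0.10 (adjusted p = 0.688) and Esrra of -0.06 (adjusted p = 0.593). Of 10 measured PPAR-alpha targets 7 were negative and 1 passed (Ech1, -0.28, adjusted p = 0.00401), and of 9 measured peroxisomal genes 7 were negative and 1 passed (Scp2, -0.15, adjusted p = 0.0286).

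**Figure D4:**
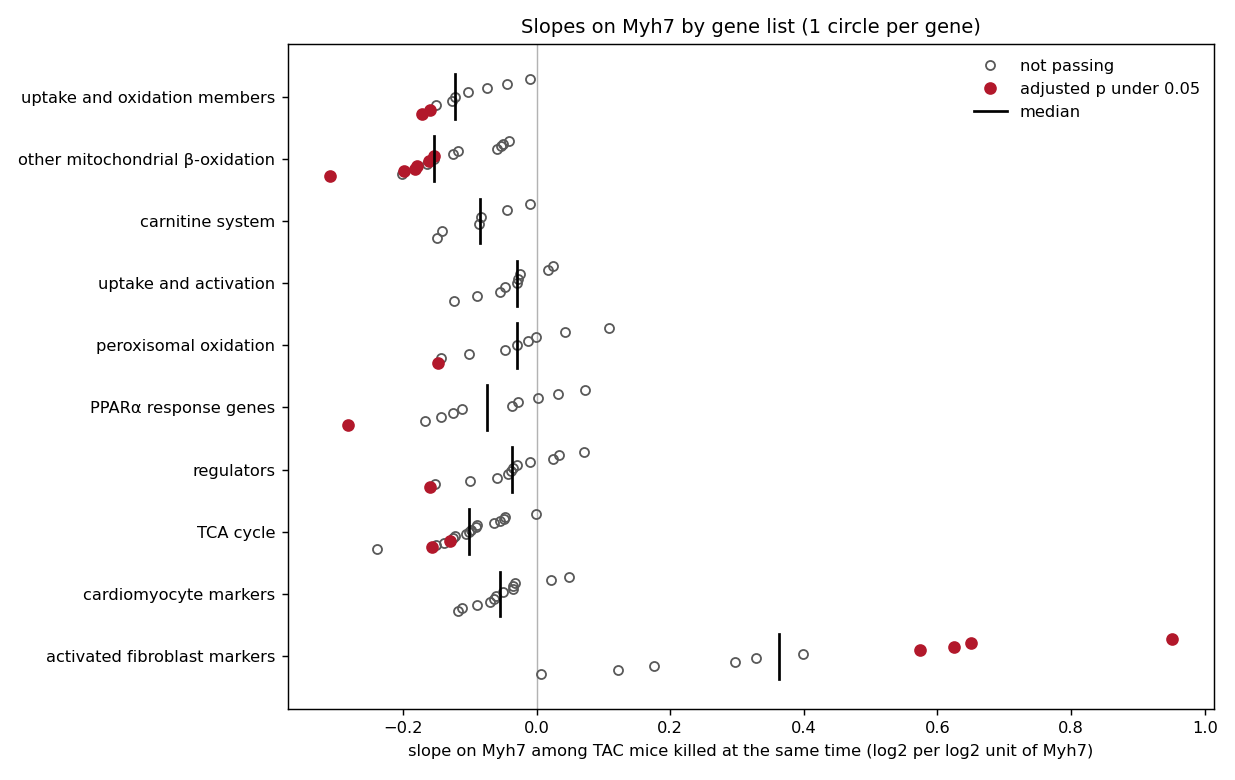
Slope on Myh7 within times over 18 TAC hearts (log2 units per log2 unit of Myh7) for the members, the other pathway lists and marker lists. Each circle is a gene, filled where it passed the test, and upright lines are list medians; the 15 other beta-oxidation genes and the 17 tricarboxylic acid cycle genes all lie below 0, and the 10 activated fibroblast genes all lie above it.

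A larger share of the 78 measured pathway genes than of all genes passed the test over the 6 times in SHAM hearts. In the other tests within a surgery the share was near or below that of all genes. These differences in share were not tested, and the genes were measured in the same hearts. The rhythm test was passed by 1 of 78 in TAC (4.35% of all genes) and by 4 of 78 in SHAM (5.58%), and the test over the 6 times by 5 of 78 in TAC (5.26%) and by 9 of 78 in SHAM (3.37%). In TAC, Plin5, a lipid droplet protein among the PPAR-alpha targets, had a rhythm (amplitude 0.28, adjusted p = 0.0141 in limma). Plin5 also changed over the times in TAC. So did Slc22a5, the carnitine transporter of the plasma membrane, Acadsb and Etfb among the beta-oxidation genes, and Idh3a of the tricarboxylic acid cycle. In SHAM, rhythms were called for Cpt1a, the liver form of the outer-membrane carnitine palmitoyltransferase (amplitude 0.13, adjusted p = 0.00274), and for Klf15, a transcription factor (amplitude 0.31, adjusted p = 0.0132). They were also called for Ucp3 and Pdk4, an uncoupling protein and the kinase that switches off pyruvate dehydrogenase (amplitudes 0.56 and 0.64, adjusted p = 1.72e-04 and 0.0457). Cpt1a, Ucp3 and Pdk4 also changed over the times in SHAM, as did Slc27a1, Fabp4, Mlycd, Acot1, Pnpla2 and Ehhadh. Neither the rhythm nor the time course of any of the 78 passed the test of a difference between TAC and SHAM.

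The genes whose pattern over all 36 arrays was most like the mean of the 9 members were Etfdh and Decr1 (r = 0.93 each), Etfa and Acaa2 (0.90 each), Sdha (0.89), Acat1 and Eci1 (0.88 each), Ivd and Hadh (0.87 each) and Ech1 (0.86). These values describe 36 arrays that share their processing.

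Within times in TAC, the mean of the cardiomyocyte markers was positively correlated with the members. The activated fibroblast, fibroblast, macrophage and endothelial means were negatively correlated with them, and the white adipocyte, brown adipocyte and atrial means only weakly correlated. Most other marker means were also negative: skeletal muscle (r = -0.49), airway (-0.40), thymocyte (-0.37), erythrocyte (-0.36) and smooth muscle (-0.23). The mean of the fetal programme genes other than Myh7 had r = -0.73 with the members. The mean of 10 measured activated fibroblast genes of 12 listed ran from -0.59 to 1.02 in TAC and from -0.15 to 0.16 in SHAM. In TAC it had r = 0.91 with Myh7 and -0.84 with the mean of the members, or 0.81 and -0.88 with the time means removed. Of these 10 genes 10 had positive slopes on Myh7 and 4 passed, among them Postn (0.95, adjusted p = 1.18e-04 in limma). With this mean added to the model 0 members and 0 genes in all passed; the slope was -0.10 for Cd36 (adjusted p = 0.842), -0.12 for Acadm (adjusted p = 0.763) and above 0 for Fabp3, Lpl, Acadl and Hadha. The mean of 12 cardiomyocyte genes of 12 listed ran from -0.15 to 0.10 in TAC and from -0.14 to 0.13 in SHAM, and within times in TAC it had r = -0.52 with Myh7 and 0.74 with the members. With it in the model the slopes were -0.15 for Cd36 (adjusted p = 0.146) and -0.14 for Acadm (adjusted p = 0.139). The mean of 7 fibroblast genes of 7 ran from -0.38 to 0.29 in TAC and from -0.14 to 0.12 in SHAM, and within times in TAC it had r = 0.78 with Myh7 and -0.67 with the members. Of these genes, 7 of 7 had positive slopes on Myh7 and 2 passed. The mean of 9 measured macrophage genes of 10 ran from -0.36 to 0.33 in TAC and from -0.18 to 0.15 in SHAM, and within times it had r = -0.47 with the members in TAC and -0.70 in SHAM. The mean of 10 endothelial genes, from cells in which Cd36 is also made, had r = 0.51 with Myh7 and -0.54 with the members within times in TAC. The part of the fibroblast, macrophage, endothelial, skeletal muscle, erythrocyte and smooth muscle genes in the result was not tested. The mean of 8 measured white adipocyte genes of 10, a cell type that makes both Lpl and Cd36, ran from -0.52 to 1.25 in TAC and from -0.51 to 1.22 in SHAM and had r = 0.01 with the members within times in TAC. The mean of 8 atrial genes of 8 ran from -0.83 to 0.49 in TAC and from -0.80 to 0.23 in SHAM, and within times it had r = 0.14 with the members in TAC and -0.44 in SHAM. With the atrial and white adipocyte means in the model the slope was -0.17 for Cd36 (adjusted p = 0.0535) and -0.16 for Acadm (adjusted p = 0.0482).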

How the data were processed

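Labels gave surgery, time and replicate number. The values deposited by the authors were read as log2 (the base is not given in the sources used here) and were centred by probe set within each surgery, as found from the values. Array processing software is not given in the sources used here. Of 22690 probe sets, 20380 had 1 gene symbol in the platform annotation, 691 several and 1606 none, and 13 controls were left out. Probe sets of a gene were averaged (12393 genes, 4956 with several probe sets). Tests used limma 3.58.1 in R 4.3.3 on the whole table, with Benjamini-Hochberg adjustment over all genes and a threshold of 0.05, and were tested on simulated data. The number of arrays limits the precision. Members and gene lists were chosen with earlier results of these data known. All members were named; of each pathway list, up to 3 genes with the smallest p in a test were named. The other genes that passed, and Ppara, Ppargc1a and Esrra, were added after their values were seen. The alternatives were other scalings, probe set rules, covariates, weights, blocks and omitted arrays.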

Additional observations from a re-analysis of the deposited data

How the results depend on the processing

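The 10 counts of members gave 441 values under alternative settings, of which 392 stayed within 1.5 times of the reported count and 49 moved. A reported count of 0 was kept only where it stayed 0, and most of the 10 counts were 0. The count of slopes on Myh7 in TAC was kept under 11 of 37 alternatives. That of changes over the times in TAC was kept under 32 of 50. The 0 members with a rhythm difference and the 0 with a slope difference held under the alternatives run. The count of 7 correlations with an unadjusted p under 0.05 (19.9% of all genes as reported) stayed at 6 to 7, but not with the same genes. With the time means removed, Hadha and Acadl left that count and Lpl entered it. For Cpt2, the 1 member changing over the times in TAC became 0 with quantile normalization (adjusted p = 0.0627), with the probe set of largest SD, with each probe set by itself, with atrial and white adipocyte covariates, without the airway and thymocyte arrays (adjusted p = 0.129) and with the TAC arrays alone; it became 8 with array quality weights, under which 4969 genes of all passed instead of 652. Those weights, whose fit did not fully converge, also gave 1 rhythm in SHAM (Lpl, adjusted p = 0.0278 in limma). There 1976 genes of all passed instead of 692. They gave 3 members changing over the times in SHAM (3619 genes of all instead of 418). A time course that differs between TAC and SHAM was given for 6 members (1730 genes of all instead of 2). The 2 members with a slope on Myh7 in TAC became 1 with array-median centring (145 genes of all instead of 176) and with atrial and white adipocyte covariates (187). They also became 1 with the fetal programme mean in place of Myh7 (140), a mean that itself includes Myh7. They became 4 without time means (796). They became 0 with quantile normalization (23 genes of all), array weights (84), without the airway and thymocyte arrays (95), with the cardiomyocyte or activated fibroblast mean as covariate (118 and 0), and without the 3 arrays of TAC ZT11 (111; slopes -0.14 for Cd36 and -0.13 for Acadm); the last 3 were chosen after seeing the data, as was the brown adipocyte mean, which kept both calls. The spread test gave 1 member (Acadm) on absolute deviations and 199 genes of all instead of 2. Leaving out arrays or replicate numbers gave 0 to 1 rhythms in TAC, 0 to 6 changes over the times in TAC and 0 to 3 slopes. The slope was negative for Cd36, Cpt2, Acadm, Acadvl and Hadhb under 37 of 37 alternatives, for Hadha under 36 of 37, for Lpl and Acadl under 35 of 36 and for Fabp3 under 30 of 36. The TAC minus SHAM difference in spread also turned sign for Cd36, Lpl, Acadl and Acadvl when some arrays were left out, without having passed a test. For Lpl, Acadl and Acadvl it also turned under other settings. A filter on low SD left out Fabp3, Lpl and Acadl. The replicate numbers were not taken as pairs, since the labels tie them to nothing shared. The mean r was 0.04 between arrays of the same number (lowest -0.36) and -0.02 between arrays of different numbers. As a hint of something shared, 23 of 36 arrays correlated best with their own number among the 3. Whether the numbers mark a batch was not tested. With a replicate block, 0 members passed the slope test (Cd36 -0.16, adjusted p = 0.0732; Acadm -0.16, adjusted p = 0.0629), and 153 genes of all did. The cause of these changes was not tested.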
